A study of Mus musculus with 12 samples.

Results

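The promoters of the Hox genes were described by how open their chromatin was in livers of mice that had been given PCN, atorvastatin or vehicle. The set held every gene in the promoter table whose symbol begins with Hoxa, Hoxb, Hoxc or Hoxd and a number. It came to 43 of the 25124 gene symbols in the table, on 50 of its 43511 promoter rows, and for the 6 symbols with more than 1 row the row with the highest mean count was used. Of the 43 genes, 39 encode proteins and 4 are antisense noncoding genes (Hoxa11os, Hoxb3os, Hoxb5os and Hoxd3os1). The Hoxa cluster on chromosome 6 held 12 of them, the Hoxb cluster on chromosome 11 held 12, the Hoxc cluster on chromosome 15 held 9 and the Hoxd cluster on chromosome 2 held 10. No difference between groups of mice entered the choice.

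ATAC-seq, in which a transposase cuts DNA where chromatin is open and the cut ends are sequenced, was run on whole liver from male C57BL/6N wild-type mice on standard chow, 19 to 20 weeks old, with 4 libraries in each of 3 groups. The first group received 100 mg/kg PCN (pregnenolone 16α-carbonitrile), an activator of the mouse nuclear receptor PXR, and the second 10 mg/kg atorvastatin, an inhibitor of cholesterol synthesis. The control group received distilled water, the vehicle. All mice were dosed by gavage for 4 days and then went without food for 12 h. The labels do not say whether each library came from a separate mouse, so p-values measure the spread between libraries alone, and a pravastatin group named in the design is not analysed here. Openness is given as CPM, the counts on a promoter per 1000000 promoter counts of its library; it is not divided by the length of the counted window, which the files do not give, so levels of different genes are compared as if their windows were alike.

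Hox proteins are homeodomain transcription factors that tell cells their position along the head-to-tail axis of the embryo. The order of the genes within a cluster matches the order in which they act, low numbers toward the head and early, high numbers toward the tail and late. In cells that do not use them, Polycomb complexes hold Hox genes in a compact, repressed state, although many of their promoters are CpG islands, stretches rich in C followed by G that are open at most genes. Trithorax-type proteins oppose Polycomb, and retinoic acid switches on the genes at the low-numbered end. Hepatocytes come from endoderm, while fibroblasts of adult organs often keep the Hox genes of their region active. ATAC-seq reads no transcripts, so whether these genes were silent in the livers cannot be checked from these counts.

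Sequences of 5 of the promoters are shown because their range from rich to poor in CpG carries the comparison with other promoters made further on. Each is the 250 bases before the gene's start in RefSeq, build GRCm38.p6, written 5′ to 3′ on the gene's own strand, with every CpG in capitals. The first 3 are rich in CpG: Hoxa5, needed for the airways and lung, with 28 CpG (chr6:52204588-52204837, minus strand), Hoxa13, which shapes digits and the urogenital tract, with 35 (chr6:52260881-52261130, minus strand), and Hoxd13, a digit gene, with 31 (chr2:74667975-74668224, plus strand). The last 2 hold 3 CpG each: Hoxa9, known from blood stem cells and leukaemia (chr6:52227371-52227620, minus strand), and Hoxd4, a gene of the neck vertebrae (chr2:74721728-74721977, plus strand).
Hoxa5: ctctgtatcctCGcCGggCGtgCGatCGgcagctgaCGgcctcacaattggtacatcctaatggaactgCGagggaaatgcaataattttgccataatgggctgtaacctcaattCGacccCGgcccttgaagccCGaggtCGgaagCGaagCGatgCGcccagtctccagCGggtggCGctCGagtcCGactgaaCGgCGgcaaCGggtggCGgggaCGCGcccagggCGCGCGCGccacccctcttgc
Hoxa13: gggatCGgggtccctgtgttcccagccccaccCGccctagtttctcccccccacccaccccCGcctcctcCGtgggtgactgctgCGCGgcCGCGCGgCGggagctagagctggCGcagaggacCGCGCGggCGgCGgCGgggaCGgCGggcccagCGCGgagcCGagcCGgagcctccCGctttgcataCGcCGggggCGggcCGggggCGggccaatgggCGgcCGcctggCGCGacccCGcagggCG
Hoxd13: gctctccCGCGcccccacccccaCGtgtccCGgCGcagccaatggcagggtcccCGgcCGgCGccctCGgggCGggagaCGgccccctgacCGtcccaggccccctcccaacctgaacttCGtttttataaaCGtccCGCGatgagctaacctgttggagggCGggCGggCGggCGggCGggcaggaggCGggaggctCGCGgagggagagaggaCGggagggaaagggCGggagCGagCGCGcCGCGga
Hoxa9: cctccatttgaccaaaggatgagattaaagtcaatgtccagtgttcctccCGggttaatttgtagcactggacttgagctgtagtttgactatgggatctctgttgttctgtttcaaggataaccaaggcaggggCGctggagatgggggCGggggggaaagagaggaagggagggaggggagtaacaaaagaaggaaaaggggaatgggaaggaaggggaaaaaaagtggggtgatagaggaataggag
Hoxd4: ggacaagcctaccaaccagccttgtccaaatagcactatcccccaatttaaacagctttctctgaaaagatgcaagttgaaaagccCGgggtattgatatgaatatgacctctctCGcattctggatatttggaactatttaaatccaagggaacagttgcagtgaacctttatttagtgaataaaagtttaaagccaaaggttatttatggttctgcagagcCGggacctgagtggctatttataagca

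The files do not state the window that was counted as a promoter, and the RefSeq table used carries no transcript name, so the counted window may differ from the stretch printed. Such a stretch was found for 25 of the 43 genes, as 27 entries. Both strands of each were searched for 3 motifs, one at a time, so that matches may overlap. The GC box GGGCGG was in 10 of the 27 Hox stretches (37.0%) and in 32.7% of 32851 promoters. The CCAAT box CCAAT was in 14 of the 27 (51.9%) and in 33.8% of all. TGATTNAT, a site that Hox proteins can bind together with PBX partners, was in 2 of the 27 (7.41%) and in 2.82% of all. A match describes the letters and shows no binding.

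Hox promoters were less open than most promoters of the liver and more open than those of olfactory receptors, a family of genes that liver does not use. Averaged over the 12 libraries, the 43 Hox promoters had a median of 6.62 CPM, against a median of 12.9 CPM over all 25124 symbols and of 2.99 CPM over 1132 olfactory receptor promoters. The median Hox promoter stood at percentile 31.1 among all symbols, and the median olfactory receptor promoter at percentile 9.43. Of the 43, 41 lay below the median of all symbols, and 31 lay above 5.63 CPM, the 95th percentile of the olfactory receptors. Of all 25124 symbols, 18652 lay above that level, a like share. A second list of 53 developmental regulators outside the clusters, among them Pax, Lhx, Sox and T-box genes, had a median of 8.53 CPM at percentile 39.7. These ranks were taken as descriptions, with no test, and in bulk tissue a promoter open in few cells and one slightly open in many cannot be told apart.

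Among the most open Hox promoters were Hoxa genes of low number and Hoxd genes of high number. Hoxa4 averaged 13.4 CPM over the 12 libraries, at percentile 50.8. Hoxa5 averaged 11.5 CPM and Hoxa3, needed for the thymus and parathyroid, 10.7 CPM. The lead of Hoxa4 over Hoxa5 rested on control 3: without that library Hoxa4 averaged 11.78, Hoxa5 11.81 and Hoxa3 9.20 CPM. The 2 least open promoters of Hoxa were those of Hoxa9, at 4.46 CPM and percentile 18.5, and Hoxa6, at 5.19 CPM. Levels in Hoxa did not fall steadily with gene number, since Hoxa10 and Hoxa13 averaged 8.37 and 7.94 CPM.

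In Hoxd the most open promoters were those of high-numbered genes. Hoxd13 averaged 10.2 CPM, Hoxd12 9.90, Hoxd11 9.77 and Hoxd9 9.63 CPM, with Hoxd10 and Hoxd8 lower at 6.63 and 6.62 CPM. The low-numbered Hoxd1, Hoxd3 and Hoxd4 averaged 5.97, 5.09 and 3.90 CPM. Hoxd4 was the least open of all 43, at percentile 14.9. The first place of Hoxd13 rested on control 3: without that library it averaged 7.80 CPM, behind Hoxd12 at 10.2, Hoxd9 at 8.91 and Hoxd11 at 8.16 CPM.

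Hoxb and Hoxc showed a narrower range. In Hoxb the 2 most open promoters were those of Hoxb5, at 9.00 CPM, and Hoxb2, a hindbrain gene, at 8.94 CPM. Its 2 least open were Hoxb8, at 4.14 CPM and percentile 16.4, and Hoxb1, which gives the facial nerve its identity, at 4.69 CPM. In Hoxc, Hoxc5 averaged 8.12 CPM and Hoxc11 6.98 CPM, while Hoxc6 and Hoxc12 averaged 4.49 and 4.72 CPM. The place of Hoxc11 rested on control 3, without which it averaged 5.28 CPM, below Hoxc10 at 6.09 CPM.

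By cluster, the median promoter of Hoxa had 8.16 CPM (percentile 38.3), that of Hoxd 7.57 CPM (35.4), that of Hoxb 6.88 CPM (32.3) and that of Hoxc 5.89 CPM (27.2). Hoxa had the highest cluster median in 6 libraries, Hoxd in 5 and Hoxb in 1, and Hoxc had the lowest in 9 of the 12. By position, the 18 genes of paralog groups 1 to 5 had a median of 8.26 CPM, the 12 of groups 6 to 9 of 5.95 CPM, and the 13 of groups 10 to 13 of 6.63 CPM. The ranks of neighbours in these orders are not separate observations, since promoters a short distance apart may have been counted from the same reads. Hoxa11 and its antisense partner Hoxa11os, for one, averaged 5.42 and 5.76 CPM, and their values can only be read together.

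**Figure D1:**
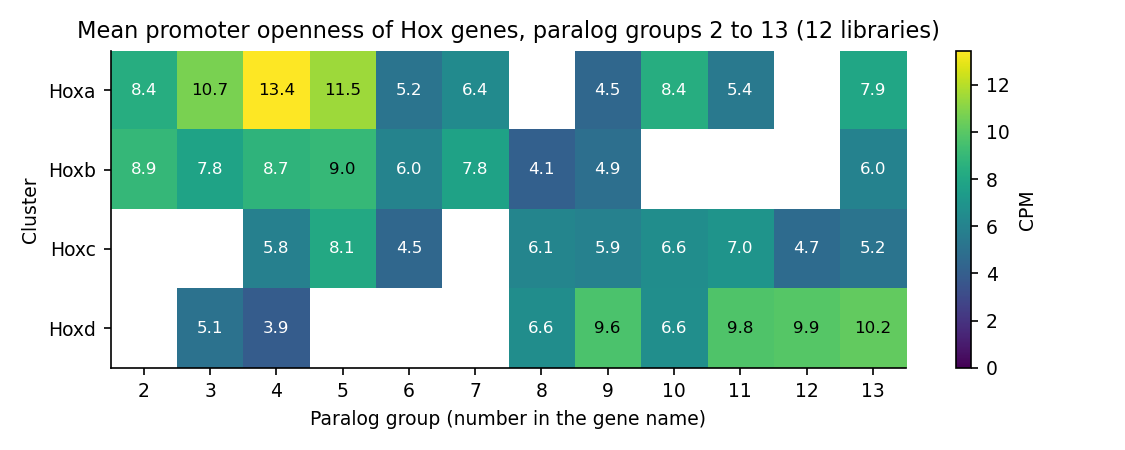
Mean promoter openness of the 36 protein-coding Hox genes of paralog groups 2 to 13 over the 12 libraries, in CPM, by cluster (rows) and paralog group (columns); blank squares are positions without a gene in the table. The brightest square is Hoxa4 at 13.4 CPM, and the darkest is Hoxd4 at 3.90 CPM.

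Single libraries varied around these means. Hoxa3 had 13.1, 10.7, 9.13 and 5.44 CPM in the PCN libraries, 14.5, 7.82, 9.90 and 4.69 CPM in the atorvastatin libraries, and 12.2, 9.66, 27.4 and 4.17 CPM in the control libraries. The 3 groups overlapped, with the highest value in control 3 and the lowest in control 4. Hoxd4 had 6.17, 2.05, 2.94 and 1.34 CPM with PCN, 4.03, 2.15, 6.89 and 2.87 CPM with atorvastatin, and 9.67, 4.55, 2.96 and 1.19 CPM with vehicle. It lay below the Hox median of its library in all 12, as did Hoxc6, which ranged between 1.34 and 9.20 CPM. Hoxa3, Hoxa4, Hoxa5, Hoxb4, Hoxd3os1, Hoxd9, Hoxd11 and Hoxd12 lay at or above it in 11 of the 12. Hoxb13 and Hoxc13, genes of prostate and of hair and nails, had 0 counts in control 4, where 3 counts, the most that a count of 0 allows, would be 1.79 CPM.

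Hox promoters with many CpG were less open than other promoters with as many. The comparison was made for Hoxa and Hoxd, where 10 of 12 (83.3%) and 10 of 10 genes had a promoter sequence. For Hoxb (4 of 12, 33.3%) and Hoxc (1 of 9, 11.1%) it is void, since fewer than 80% of the genes had one. Promoters were put in 4 classes by the number of CpG in the 250 bases before the start, and each Hox promoter was set beside all symbols of its class. Where a gene had more than 1 sequence entry, the one with the most CpG was used. CpG number and CPM can therefore belong to different starts of a gene.

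In the class with 20 to 56 CpG, the 9 Hox promoters had a median of 7.94 CPM and all 4756 promoters a median of 35.2 CPM, 4.43 times as much. Among the 9 were Hoxa5 at 11.5 CPM, Hoxd13 at 10.2 CPM and Hoxa13 at 7.94 CPM, whose sequences are printed above. With 10 to 19 CpG, the 5 Hox promoters (Hoxa3, Hoxa11, Hoxd3, Hoxd9 and Hoxd12) had a median of 9.63 CPM, and all 4905 a median of 25.9 CPM. All 14 Hox promoters with 10 or more CpG lay below the lower quartile of their class. With 5 to 9 CpG, Hoxa2, Hoxa7 and Hoxd8 had a median of 6.62 CPM, and all 2847 promoters a median of 9.79 CPM. With 0 to 4 CpG, the medians were close to each other, at 4.46 CPM for Hoxa9, Hoxd4 and Hoxd3os1 and 4.72 CPM for all 5889.

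Of the 20 Hoxa and Hoxd promoters, 19 lay below the median of their class, the exception being Hoxd3os1, an antisense gene with 4 CpG and 8.50 CPM. The median percentile within the class was 11.2. Across genes, which are not independent replicates, Spearman's rho between the number of CpG and the mean CPM was 0.69 over all symbols with a sequence and 0.29 over the 20 Hox genes. These genes share clusters and libraries, and rho is given as a description.

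**Figure D2:**
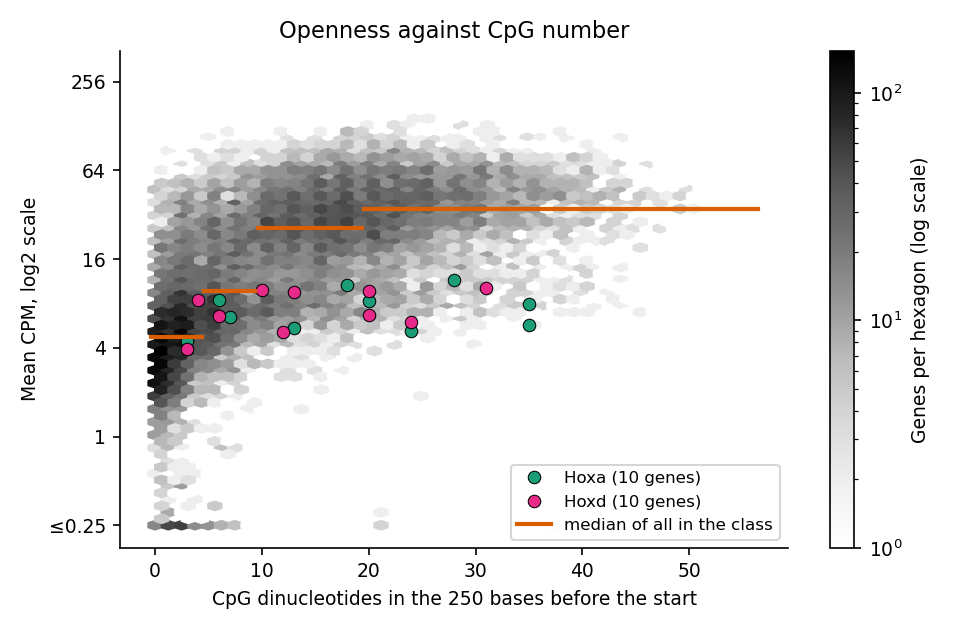
Mean promoter openness in CPM (log2 axis) against the number of CpG in the 250 bases before the start, for all genes with a sequence (shading), the 10 Hoxa and 10 Hoxd genes (points) and the median of each CpG class (lines). The Hox points stay near 4 to 12 CPM across the range of 3 to 35 CpG, while the class medians climb to 35.2 CPM.

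The level of the Hox promoters differed between libraries of one group by more than between groups. The median of the 43 promoters was 7.56, 5.85, 4.24 and 4.01 CPM in the PCN libraries, 8.65, 3.52, 12.9 and 4.39 CPM in the atorvastatin libraries, and 9.91, 6.07, 9.50 and 2.98 CPM in the control libraries. That gives 5.41 ± 1.65 CPM with PCN, 7.36 ± 4.32 CPM with atorvastatin and 7.11 ± 3.25 CPM with vehicle (SD, n = 4 each), and the 3 groups overlap. The median percentile among all symbols moved much less: it was 33.7 ± 2.00 with PCN, 33.4 ± 1.27 with atorvastatin and 31.9 ± 5.07 with vehicle (SD, n = 4 each). The 43 Hox rows took a mean of 0.0313% of all promoter counts; the share was 0.0363% with all 50 Hox rows, and 0.0578% where the total too held 1 row per symbol.

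The olfactory receptor promoters moved with the Hox promoters. Their median was 2.19 ± 0.880 CPM with PCN, 3.35 ± 2.64 CPM with atorvastatin and 2.91 ± 1.29 CPM with vehicle (SD, n = 4 each). Atorvastatin 3 had the highest Hox median (12.9 CPM) and the highest olfactory receptor median (6.89 CPM) of the 12, and control 1 was next in both, at 9.91 and 4.67 CPM. The share of counts on the most open 10% of promoters was lowest in these libraries, at 25.2% in atorvastatin 3 and 26.6% in control 1, and lay between 28.9% and 37.1% in the other 10. Control 3 had the third highest Hox median, 9.50 CPM, with an olfactory receptor median of 2.11 CPM. The part of these differences in the Hox levels was not tested.

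**Figure D3:**
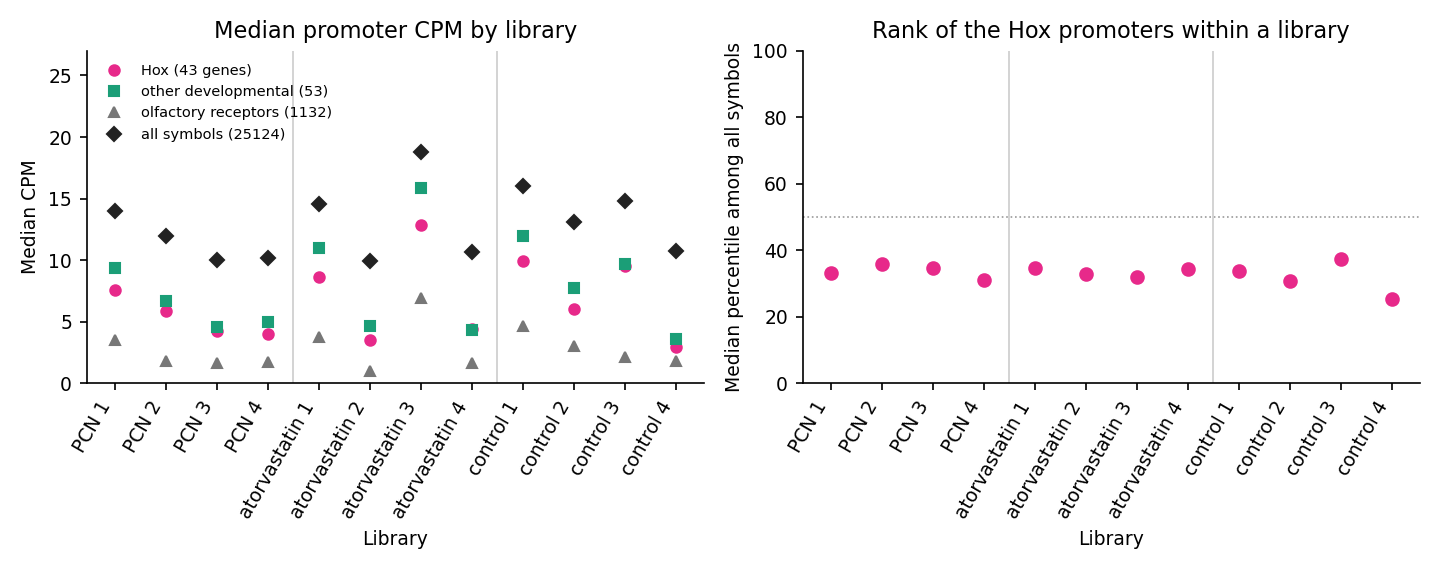
Left, median promoter CPM of the Hox genes, other developmental genes, olfactory receptors and all symbols in each of the 12 libraries; right, the median percentile of the Hox promoters. The Hox median runs between 2.98 and 12.9 CPM, while the percentile stays between 25.5 and 37.4.

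Libraries held 4872850.5 to 10021771.5 promoter counts with PCN, 4218336.5 to 15336000.5 with atorvastatin and 1679054 to 10493197 with vehicle. A Hox promoter had a median of 21 to 62.5 counts in the PCN libraries, 36.5 to 101 in the atorvastatin libraries and 5 to 104 in the control libraries, so single values of control 4 (median 5 counts) are the least precise. Control 3 and atorvastatin 3 stood apart from the rest, with median correlations to the other libraries across promoters of 0.766 and 0.790, against 0.920 to 0.969 for the other 10. Values without them stand beside the main results below.

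The comparison of PCN with vehicle asks whether activation of PXR went with a change of chromatin at these genes. Hox promoters mostly lay lower with PCN than with vehicle, no single one beyond the spread between libraries, and olfactory receptor promoters lay lower to a like extent. All 43 passed the filter on low counts. Of them, 38 had a log2 fold change below 0, where 49% of all 41908 promoters tested had one, and 5 lay above 0, against 51% of all. The median was -0.41 over Hox promoters (range -1.35 to 0.28), 0.01 over all promoters, -0.43 over olfactory receptors and -0.29 over the other developmental genes. By cluster it was -0.41 in Hoxa, -0.38 in Hoxb (12 of 12 below 0), -0.54 in Hoxc and -0.35 in Hoxd. No Hox promoter passed an adjusted p of 0.05 in the quasi-likelihood test of edgeR, adjusted by Benjamini-Hochberg (percent called among all promoters: 0), in DESeq2 or in limma-voom. At an unadjusted p under 0.05, 4 of 43 were lower and 0 higher in edgeR, against 1.88% lower and 1.87% higher of all promoters. DESeq2 gave 4 of the Hox promoters and 2095 of all 41908, and limma-voom 0 and 1226.

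The size of that median rested on the scaling and on single libraries. With loess offsets, which fit a curve to each library over the range of promoter levels, it was -0.05 over Hox promoters, against -0.01 over all, with 25 of 43 below 0. Without control 1 it was -0.19, without control 3 -0.26 and without PCN 4 -0.26. Without control 3 and atorvastatin 3 it was -0.28, with 38 of 43 below 0, and 6 promoters of all tested were called, 0 of them Hox. The control libraries include both the second highest and the lowest Hox level of the 12.

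Markers of other liver cells were looked at beside these values. Of 20 stellate cell and fibroblast markers, 16 had a log2 fold change below 0, with a median of -0.24. Their summed level was 120 to 205 CPM in the PCN libraries and 134 to 276 CPM in the control libraries. Dcn was at 0 in a control library. So were the hepatocyte marker Fgb and 2 markers in each of the endothelial, Kupffer cell, lymphocyte and cholangiocyte lists. No marker of any list was at 0 in a PCN or an atorvastatin library. Control 4 and control 3 held the fewest promoter counts of all libraries, 1679054 and 2368263. There a count of 0 allows up to 1.79 and 1.27 CPM. Of 19 hepatocyte markers, 15 lay above 0, with a median of 0.35, and their sum was 760 to 1008 CPM with PCN and 517 to 914 CPM with vehicle. The median log2 fold change was -0.22 for 16 endothelial markers, -0.24 for 15 Kupffer cell markers, -0.22 for 16 lymphocyte markers and -0.17 for 12 cholangiocyte markers. None of these genes passed the adjusted test in edgeR, and their part in the Hox values was not tested.

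The 4 promoters with an unadjusted p under 0.05 were those of Hoxa4, Hoxd13, Hoxc11 and Hoxd11. Hoxa4 had 13.1, 5.44, 6.29 and 9.45 CPM in the PCN libraries, against 19.2, 7.11, 31.7 and 16.1 CPM in the control libraries. Control 3 was the highest, and the groups overlapped through control 2. Hoxa4 averaged 8.57 ± 3.49 CPM with PCN and 18.5 ± 10.2 CPM with vehicle (SD, n = 4 each), a log2 fold change of -0.98 ± 0.39 (SE, unadjusted p = 0.0189, adjusted p = 0.918 in edgeR). Fold changes come from counts scaled by TMM, a factor for each library, and so can differ from ratios of CPM. Without control 3 the Hoxa4 value was -0.60.

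Hoxd13 had 9.80, 5.95, 5.34 and 3.63 CPM with PCN, against 11.4, 9.26, 36.7 and 5.36 CPM with vehicle. Control 3 stood far above the other 7 libraries of these groups, which overlapped. The means were 6.18 ± 2.61 CPM with PCN and 15.7 ± 14.2 CPM with vehicle (SD, n = 4 each), and the log2 fold change was -1.21 ± 0.54 (SE, adjusted p = 0.918 in edgeR). Without control 3 it was -0.41.

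Hoxc11, at the tail-ward end of its cluster, had 5.08, 4.31, 2.20 and 3.05 CPM with PCN, against 8.72, 5.19, 25.8 and 1.19 CPM with vehicle. Control 3 was again the highest and control 4 the lowest of all 8. The log2 fold change of -1.35 ± 0.65 (SE, adjusted p = 0.918 in edgeR) was the largest of the 43 by size, and it was -0.42 without control 3. Hoxd11, which acts with Hoxa11 in the forearm and kidney, had 8.35, 6.36, 6.49 and 6.11 CPM with PCN, against 16.7, 6.95, 27.4 and 7.15 CPM with vehicle. Every control library but control 2 and control 4 was above the PCN range, and the log2 fold change was -0.96 ± 0.46 (SE, adjusted p = 0.918 in edgeR), and -0.49 without control 3.

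**Figure D4:**
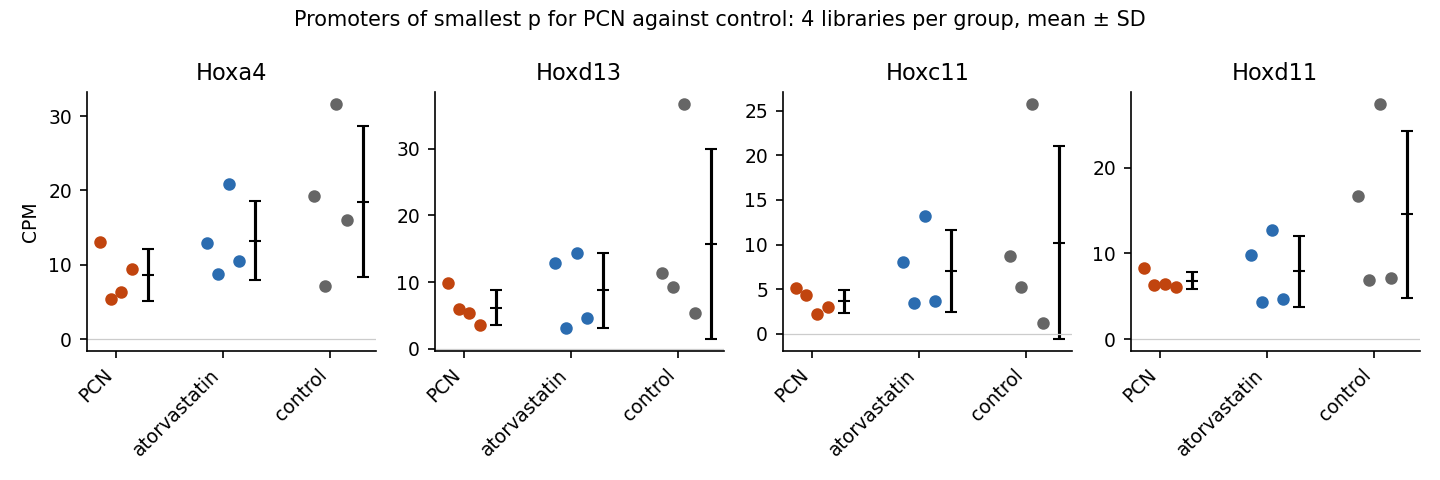
CPM of Hoxa4, Hoxd13, Hoxc11 and Hoxd11 in the PCN, atorvastatin and control libraries (points, 4 per group) with the mean and SD. In each panel the highest point is control 3, at 25.8 to 36.7 CPM, and the groups overlap.

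The 3 promoters with the smallest p on the higher side were Hoxa5, Hoxd3 and Hoxc13. Hoxa5 had 12.3, 13.03, 11.0 and 7.25 CPM with PCN, against 18.1, 9.34, 7.60 and 5.96 CPM with vehicle, and its log2 fold change was 0.18 ± 0.36 (SE, adjusted p = 0.954 in edgeR), between 0.04 and 0.58 when each library was left out. Hoxd3 had 5.38, 4.51, 3.39 and 6.87 CPM with PCN, against 6.19, 5.43, 0.422 and 5.36 CPM with vehicle (log2 fold change 0.28 ± 0.63, SE). The value of 0.422 CPM in control 3 was a single count, and without that library the log2 fold change was -0.07. Hoxc13 was at 0.422 CPM in control 3 and 0 in control 4, and its log2 fold change of 0.21 ± 0.76 (SE) was -0.13 without control 3. For 0 of the 43 promoters did the PCN and control libraries separate without overlap, against 1.9% of all promoters lower and 1.25% higher.

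The comparison of atorvastatin with vehicle asks the same of a statin. Hox promoters showed no common direction: 20 of 43 had a log2 fold change above 0 and 23 below, where 57.3% of all promoters lay above 0 and 42.7% below. The median was -0.01 over Hox promoters (range -0.87 to 0.82) and 0.05 over all promoters. It was -0.18 in Hoxa, 0.20 in Hoxb, 0.12 in Hoxc and -0.10 in Hoxd. No Hox promoter passed an adjusted p of 0.05 in edgeR (percent called among all promoters: 0), DESeq2 or limma-voom. At an unadjusted p under 0.05, edgeR gave 0 of 43, DESeq2 1 and limma-voom 3, and in edgeR 1.06% of all promoters were higher and 0.864% lower. Of all 41908 promoters tested, DESeq2 gave 1010 and limma-voom 1314 at that level. The sign of the median turned with the library left out: it was -0.41 without atorvastatin 3 and 0.18 without control 1 or without atorvastatin 2. With loess offsets 27 of 43 lay above 0, with a median of 0.08, and in limma-voom 36 of 43 lay below 0, with a median of -0.42. Without control 3 and atorvastatin 3 the Hox median was -0.25, with 33 of 43 below 0. The median of all promoters also moved: it was -0.0008 with loess offsets (49.9% above 0) and -0.08 in limma-voom (40.1% above 0). It was -0.02 without the 2 libraries (47.8% above 0).

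Hoxd11 had the smallest p on the lower side, with 9.84, 4.37, 12.8 and 4.65 CPM with atorvastatin, against 16.7, 6.95, 27.4 and 7.15 CPM with vehicle. Its means were 7.91 ± 4.102 CPM with atorvastatin and 14.6 ± 9.72 CPM with vehicle (SD, n = 4 each), and all 4 atorvastatin libraries lay below the control mean. The log2 fold change was -0.87 ± 0.46 (SE, unadjusted p = 0.0723, adjusted p = 1.00 in edgeR), and -0.40 without control 3. Hoxa7 followed with 6.64, 3.75, 5.49 and 4.01 CPM with atorvastatin, against 9.53, 8.30, 16.0 and 2.98 CPM with vehicle. Control 4 was the lowest of the 8, and the log2 fold change was -0.85 ± 0.53 (SE), and -0.49 without control 3. Hoxd13 had a log2 fold change of -0.85 ± 0.53 (SE), which was -0.05 without control 3.

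On the higher side stood Hoxb5os, antisense to Hoxb5, with 6.76, 2.05, 19.5 and 4.61 CPM with atorvastatin, against 7.67, 6.31, 0.633 and 2.38 CPM with vehicle. Atorvastatin 3 was the highest and control 3 the lowest. The log2 fold change of 0.82 ± 0.66 (SE, adjusted p = 1.00 in edgeR) was 0.02 without atorvastatin 3, 0.50 without control 3 and -0.32 without both. Hoxa5 (0.37 ± 0.36, SE) came next by p. For 0 of the 43 promoters did the atorvastatin and control libraries separate, against 0.78% of all promoters lower and 0.453% higher.

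PCN was also set against atorvastatin; the comparison with vehicle shares its PCN or atorvastatin libraries with this one. Of 43 Hox promoters, 37 had a log2 fold change below 0, where 52.1% of all promoters did, and 6 lay above 0, against 47.9% of all. The median was -0.35 over Hox promoters, -0.02 over all promoters and -0.46 over olfactory receptors. It was -0.55 in Hoxb (12 of 12 below 0), -0.56 in Hoxc (9 of 9), -0.19 in Hoxa and -0.18 in Hoxd. No Hox promoter passed an adjusted p of 0.05 in edgeR (percent called among all promoters: 0), DESeq2 or limma-voom, and each gave 0 of 43 at an unadjusted p under 0.05, against 0.043% higher and 0.687% lower of all promoters in edgeR. Among all 41908 promoters, DESeq2 gave 561 and limma-voom 154 at that level. The Hox median was -0.03 without atorvastatin 3, the library with the highest Hox level, -0.01 without control 3 and atorvastatin 3, and -0.55 without atorvastatin 2. It was -0.06 in limma-voom and -0.04 with loess offsets, under which 26 of 43 lay below 0. The median of all promoters was 0.08 in limma-voom and -0.01 with loess offsets, under which 48.1% of all lay above 0.

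Hoxb5os had 4.54, 2.98, 2.00 and 3.24 CPM with PCN, against 6.76, 2.05, 19.5 and 4.61 CPM with atorvastatin. The 2 groups overlapped at their low ends. Its log2 fold change was -1.23 ± 0.67 (SE, unadjusted p = 0.0777, adjusted p = 1.00 in edgeR), and -0.43 without atorvastatin 3. Hoxb8, whose forced expression holds myeloid cells immature, had 3.87, 2.67, 1.60 and 0.954 CPM with PCN, against 6.40, 2.09, 13.2 and 1.51 CPM with atorvastatin. Its log2 fold change of -1.20 ± 0.68 (SE) was -0.45 without atorvastatin 3. Hoxd9 had 9.07, 7.39, 6.09 and 4.01 CPM with PCN, against 12.6, 6.23, 22.9 and 8.54 CPM with atorvastatin, and its log2 fold change of -0.81 ± 0.47 (SE) was -0.42 without atorvastatin 3. All 3 were highest in atorvastatin 3. Above 0, Hoxa9 (0.24 ± 0.60), Hoxa3 (0.15 ± 0.45) and Hoxd8 (0.15 ± 0.62, log2 fold change ± SE) had the smallest p. For 0 of the 43 promoters did the PCN and atorvastatin libraries separate, against 0.208% of all promoters lower and 0.296% higher.

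**Figure D5:**
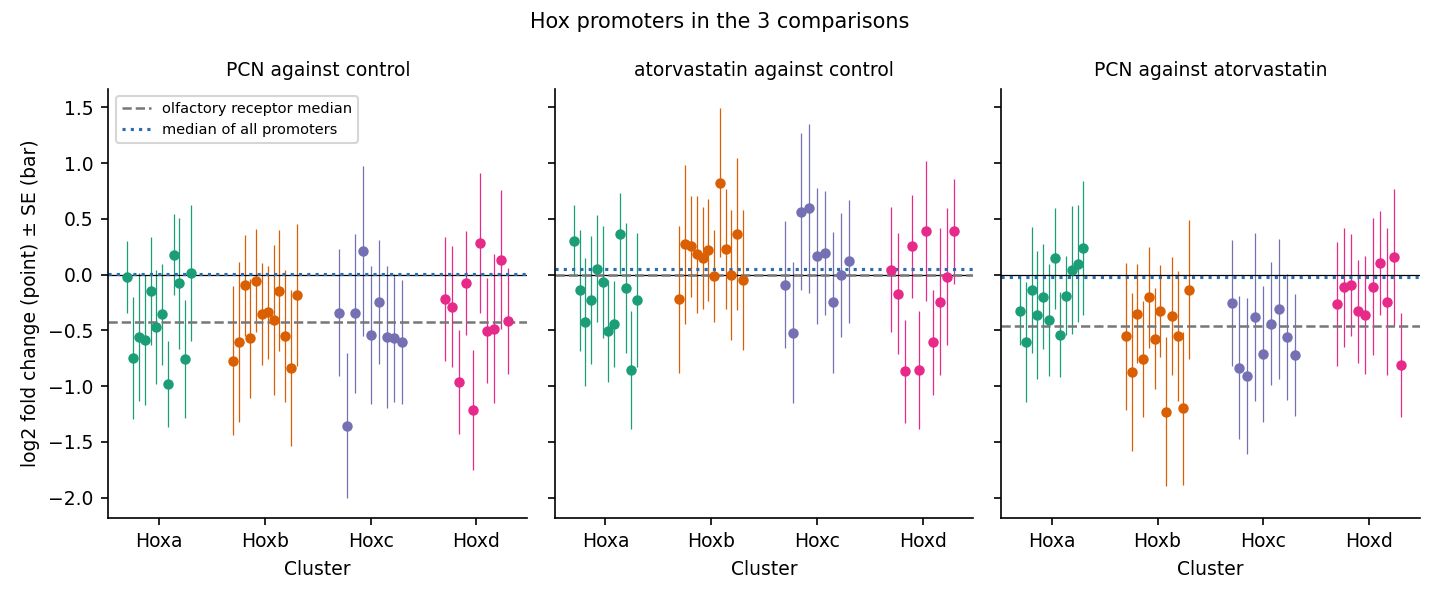
Log2 fold changes (points) with their SE (bars) of the 43 Hox promoters by cluster, in the 3 comparisons, with the median of olfactory receptors (dashed) and of all promoters (dotted). With PCN against control the Hox points lie around the olfactory receptor median of -0.43, and with atorvastatin against control they spread on both sides of 0.

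Other noncoding genes lie in the clusters, and the 12 outside the set above had a median of 5.81 CPM. The microRNA genes Mir10b and Mir10a, which lie by Hoxd4 and Hoxb4, had 10.2 and 9.13 CPM, and Mir196a-1, by Hoxb9, had 4.24 CPM. Hotair, an RNA studied for its ties to Polycomb, had 4.42, 3.49, 0.399 and 2.48 CPM with PCN, 3.56, 1.04, 7.66 and 1.78 CPM with atorvastatin, and 3.91, 3.27, 22.0 and 0.893 CPM with vehicle. Control 3 was the highest of the 12 at Hotair, as it was at the neighbouring Hoxc11. Over all 16 noncoding genes, the 4 of the set included, 12 lay below 0 with PCN against control, 5 with atorvastatin against control and 14 with PCN against atorvastatin, and 0 were called by edgeR in any of the 3.

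Most genes of the machinery that acts on Hox genes had promoters above the median of all symbols. The 12 genes of Polycomb complex PRC2, which places the repressive histone mark, had a median of 33.6 CPM, the 20 of PRC1, which reads it, 34.8 CPM, and the 12 trithorax-type activators and demethylases 40.3 CPM. The 9 TALE partners of Hox proteins, of the Pbx, Meis and Pknox families, had a median of 28.1 CPM. The 12 genes of a retinoic acid and Cdx list had a median of 30.1 CPM, with 8 above the median of all symbols. For comparison, 19 hepatocyte markers had a median of 37.2 CPM and 20 stellate cell and fibroblast markers one of 8.73 CPM. With PCN against control, the median log2 fold change was 0.12 for PRC2, 0.05 for PRC1, 0.06 for the trithorax list, 0.24 for the TALE partners and 0.11 for the retinoic acid and Cdx list. With atorvastatin against control these medians lay between -0.03 and 0.08. None of these genes was called by edgeR in any of the 3 comparisons.

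The enhancer regions in the authors' table were also looked at within the Hox clusters. Of 406518 regions in the enhancer table, 63 lay within the spans of the 4 clusters, and overlapping ones merged into 36 loci. Hoxb held 31 regions, or 17.8 per 100 kb, Hoxa 17 (16.1 per 100 kb), Hoxc 10 (8.64 per 100 kb) and Hoxd 5 (5.16 per 100 kb). In the 100 kb on either side the densities were 20.5 around Hoxb, 15 around Hoxa, 25 around Hoxc and 5.5 around Hoxd. All these densities count overlapping regions separately. Merged, Hoxb held 17 loci, Hoxa 7, Hoxc 8 and Hoxd 4, so the lead of Hoxa over Hoxc in regions does not hold for loci. Of the 63 regions, 18 (28.6%) had the width whose regions stood highest in atorvastatin 3, against 24.8% of all regions. The median level of the 63 was 1.09 CPM (per 1000000 enhancer counts), against 1.47 CPM over all regions. It was 1.42 CPM in Hoxa, near that of all regions, and lower in Hoxb (1.09 CPM), Hoxc (0.933 CPM) and Hoxd (0.664 CPM).

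The highest region lay between genes of Hoxa, at chr6:52221782-52221916 of mm10, on the stretch between Hoxa7 and Hoxa9, and averaged 3.58 CPM at percentile 79.0 of all regions. It had 2.02, 2.59, 1.79 and 0.714 CPM with PCN, 3.93, 2.45, 0.433 and 2.87 CPM with atorvastatin, and 4.89, 2.42, 13.7 and 5.17 CPM with vehicle. Control 3 was the highest, and the PCN and control libraries overlapped through PCN 2 and control 2. The first place of this region rested on control 3, without which the overlapping region at chr6:52221737-52221869 averaged more. The region was picked by its mean over all 12 libraries, so the choice drew on the control 3 value that its test also used. Its log2 fold change with PCN against control was -1.58 ± 0.67 (SE, unadjusted p = 0.0274, adjusted p = 1.00 in edgeR). Of the tested regions that overlap it, that at chr6:52221786-52221914 had a log2 fold change of -1.21 ± 0.68 (SE). The others had values between -0.40 and 0.05, and 0 CPM in control 3. The 17 regions tested in the clusters lay in Hoxa and Hoxb alone, and most overlapped others of the 17, so they are not separate observations. The highest region was the single one of them with an unadjusted p under 0.05 in edgeR, against 1.98% of all 182115 regions tested. Its log2 fold change was -1.19 without control 3 (unadjusted p = 0.0687 in edgeR), and its unadjusted p was also above 0.05 without control 1 (0.0518), without PCN 3 (0.0554), without PCN 4 (0.101) and with the replicate number as a block (0.0501). That p was below 0.05 in the other runs, among them the one without atorvastatin 3 (0.00988). Without control 3 and atorvastatin 3 the log2 fold change was -1.21 (unadjusted p = 0.0150, adjusted p = 0.557 in edgeR). In the other 2 comparisons 0 of the 17 had an unadjusted p under 0.05, against 2.39% of all regions with atorvastatin against control and 0.426% with PCN against atorvastatin. None of the 17 was called by edgeR in any comparison (percent called among all regions: 0), and their median log2 fold changes were -0.35 with PCN against control, -0.07 with atorvastatin against control and -0.28 with PCN against atorvastatin. Over all regions these medians were 0.20, 0.14 and 0.08. The sign of these medians turned with the library left out, with 17 to 26 regions of the clusters tested each time. With PCN against control it lay between -0.57 (without control 3) and 0.42 (without control 1), with atorvastatin against control between -0.51 (without atorvastatin 1) and 0.73 (without control 1), and with PCN against atorvastatin between -0.66 (without PCN 2 or without atorvastatin 3) and 0.14 (without atorvastatin 1). With the replicate number as a block the medians were 0.08, 0.03 and 0.07 in the same order of comparisons, against 0.36, 0.19 and 0.15 over all regions. Without control 3 and atorvastatin 3 that of 19 regions was -0.67 with PCN against control.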

How the data were processed

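ATAC-seq was run by the authors on mouse liver, with 4 libraries per group. The deposited tables hold expected counts in steps of 0.5, as the authors left them, for 43511 promoters named by RefSeq transcript and 406518 enhancer regions; this unit follows from the values themselves. The submitters' processing notes list the build mm10 and the tools STAR 2.7.9a, HOMER 4.10, Trimmomatic and bedtools 2.30.0, with no roles; the counting tool, the promoter window and any filter are not given in the sources used here, and they decide how far neighbouring Hox promoters share reads. Of the promoter rows, 97 carry no symbol.

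CPM was computed per 1000000 promoter (or enhancer) counts of a library. Percentiles rank mean CPM over the 12 libraries among 25124 symbols, 1 row each, the row of highest mean. Counts were rounded and fitted in R 4.3.3 with edgeR 4.0.16: TMM (factors 0.890 to 1.13), filterByExpr (count 10, total 15), the quasi-likelihood test with all 12 libraries in 1 fit and group as the sole factor, and Benjamini-Hochberg adjustment over the 41908 promoters tested (threshold 0.05). SE was taken as the size of the log2 fold change divided by the root of F. Intervals and limits of a count of 0 cover counting error only.

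Genes were named by this rule: the 2 most and 2 least open per cluster, and the 3 of smallest p per direction and comparison; Hoxd11 (PCN against control), the genes of the CpG classes and the noncoding genes were named after their values were seen. Values of 1 gene that the rule names are not reported here. The members and lists were chosen with earlier results of these data known. Replicate numbers were not used as pairs in the main fit. Of 12 correlations between same-numbered libraries (-0.41 to 0.50), 7 exceeded 0.1. They were positive in each pair of groups for replicate 1 (0.35 to 0.50) and replicate 4 (0.24 to 0.45). For replicates 2 and 3 they lay between -0.41 and 0.10. Alternatives were DESeq2 1.42.0, limma-voom (limma 3.58.1), other scalings, no filter, a threshold of 0.1, a fit of 2 groups, a replicate block and leaving out libraries. The enhancer fit, the CpG classes and the levels without control 3, alone or with atorvastatin 3, were added after seeing the data. CpG and motifs came from RefSeq sequence (GRCm38.p6), read with Python 3.11.15.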

Additional observations from a re-analysis of the deposited data

Results flagged for a closer look

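Of 93 sets of 4 libraries checked, 4 held a library whose gap to the nearest of the others, as a share of the range, exceeded Dixon's 95% critical value, and chance gives about 1 in 20. In the controls, the ratio of the Hox median to the olfactory receptor median was 4.50 in control 3, against 1.67 to 2.12 in the other 3 (gap 0.839 of the range). Hoxd3 was lowest in the same library, at 0.422 CPM against 5.36 to 6.19 CPM (gap 0.855). In the PCN group, Hoxb1 had 6.35 CPM in PCN 1, against 1.91 to 2.46 CPM in the other 3 (gap 0.875), and Hoxd11 had 8.35 CPM in PCN 1, against 6.11 to 6.49 CPM (gap 0.831).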

How the results depend on the processing

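No Hox promoter was called by any alternative run, a threshold of 0.1 included. No enhancer region of the clusters was called without each library in turn, without control 3 and atorvastatin 3 or with the replicate block, the alternatives run for them. These counts stayed at 0. The median log2 fold change of the Hox promoters ran between -0.59 and -0.19 for PCN against control, -0.41 and 0.18 for atorvastatin against control, and -0.55 and -0.03 for PCN against atorvastatin when each library was left out. Scaling by library totals in place of TMM put the median of all promoters at -0.10 for PCN against control and that of the Hox promoters at -0.51. With the replicate number as a block it was -0.28, 0.05 and -0.30, and the block changed no call; medians of the enhancer regions under it are given with that comparison. Among protein-coding symbols alone the median Hox percentile was 27.1, and leaving out each library put it between 30.0 and 34.3, the highest without atorvastatin 3. With 1 row per symbol in the total, the Hox share of counts was 0.0578%. Of 357 values of named genes, 345 kept their direction and 12 reversed; none of these passed an adjusted test, and the cause was not tested. By limma-voom Hoxa5 was -0.0899 for PCN against control and -0.0028 for atorvastatin against control. Without control 3 and atorvastatin 3, Hoxd3 was -0.0694 and Hoxc13 -0.18 for PCN against control, and Hoxb5os -0.32 for atorvastatin against control. Leaving out each library put Hoxd3 between -0.0728 and 0.46 Hoxc13 between -0.13 and 1.05 and Hoxa5 between 0.04 and 0.58 for PCN against control, Hoxa5 between 0.23 and 0.76 for atorvastatin against control, and Hoxa9 between -0.0110 and 0.68, Hoxa3 between -0.0531 and 0.40 and Hoxd8 between -0.0610 and 0.34 for PCN against atorvastatin. All 14 CpG-rich Hoxa and Hoxd promoters stayed below the lower quartile of their class, and 41 to 42 of 43 below the median of all symbols, whichever library was left out. CPM per promoter length was not run, since the window is not stated. Depth limits control 4 most, where a Hox promoter had a median of 5 counts.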
